A study of Mus musculus with 10 samples.

Results

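The Fox, Sox, Tbx, Gata, Nkx, Klf, Pitx, Meis, Pbx and Irx genes encode DNA-binding transcription factors, some of which give the gut its layers and its regions. They were taken by symbol from the transcript tables, by family stem and number, with 1 Sox gene left out by the rule, and 113 of the 19214 gene symbols in the tables matched. The rule reads symbols and no levels, although the families themselves were chosen with earlier results of these data known. They comprised 36 Fox, 17 Sox, 11 Tbx, 6 Gata, 11 Nkx, 17 Klf, 3 Pitx, 3 Meis, 4 Pbx and 5 Irx genes.

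RNA sequencing had been carried out on 10 libraries from the jejunum and colon of C57BL/6 mice aged 4 weeks. The muscle layer of each organ gave a library of unsorted tissue (SM), of sorted smooth muscle cells (SMCs), of sorted interstitial cells of Cajal (ICC, the pacemaker cells of the gut) and of sorted PDGFRα+ cells (fibroblast-like interstitial cells). The colon also gave unsorted mucosa and PDGFRα+ cells sorted from it. SMCs came from smMHCCre-eGFP/+ mice, in which Myh11 regulatory sequence drives the reporter, and were pooled from many animals. ICC and SM tissue were labelled KitcopGFP/+, whereas every PDGFRα+ library and the mucosa were labelled PdgfraeGFP/+. By these labels, 1 copy of Kit or of Pdgfra carried the reporter, but the study's methods name smMHC Cre-eGFP mice as the source of the muscle layers, so the genotype of SM tissue is uncertain. Each group had 1 library, so the differences below have no replicate check, no p-value was computed, and only the sizes of the differences between these libraries are reported.

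Levels are FPKM (fragments scaled to transcript length and to the mapped fragments of the library) summed over the transcript variants of a gene, with variants under 0.025 FPKM set to 0. The tables hold no counts, so that no counting error can be given for a value. The summed levels ran from 298216 to 384512 FPKM per library, and 10921 to 12676 genes reached 1 FPKM in each. Jejunal, colonic and mucosal libraries lay in 3 separate tables, so that levels set across organs or across layers compare values normalized separately. The library labelled jejunal PDGFRα+ cells showed its label's markers only in part. Pdgfra was at 34.0 FPKM there against 57.0 in jejunal SM tissue. The 6 smooth muscle markers had FPKM ratios to that tissue of 0.497 to 1.22, with a median of 1.02. The lowest was that of Myh11, at 1677 against 3370.4 FPKM. Of the other 2 markers of PDGFRα+ cells, P2ry1 was above tissue, at 7.09 against 3.62 FPKM, and Kcnn3 was at 21.2 against 23.6. The 5 fibroblast markers were split, with ratios of 0.661 to 4.18. Dcn, Dpt and Lum were above tissue, Dcn at 1079 against 437 FPKM. Col1a1, at 325 against 378, and Col3a1, at 493 against 746, were below it. The 7 epithelial markers, summed, were at 74.5 against 2.88 FPKM. In the colon, Pdgfra was at 230 FPKM in muscle PDGFRα+ cells and 228 in mucosal PDGFRα+ cells, against 47.4 in SM tissue and 11.0 in mucosa. Kit was at 468 and 792 FPKM in jejunal and colonic ICC, with 29.4 and 41.4 in the tissues. In mixed tissue, fewer cells of a type and less RNA per cell cannot be told apart.

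As background, Foxa, Gata and Klf proteins bind the genes of gut epithelium, where Foxa proteins can open closed chromatin, and Klf4 and Klf5 act in differentiating and in dividing cells of the epithelium, respectively. In the mesenchyme beneath it, Foxf and Foxl1 respond to hedgehog ligands that the epithelium secretes. The Meis and Pbx proteins are homeodomain partners of Hox proteins, and Nkx, Pitx, Tbx and Irx genes mark regions of the developing gut, limb or heart in the mouse.

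Of the 113 factors, 69 reached 1 FPKM in at least 1 library, 45 reached 10 FPKM and 29 reached 20 FPKM. The corresponding share at 1 FPKM was 61.1% for the factors and 75.7% for all genes. Klf genes were the most widely detected of the larger families, with 14 of 17 reaching 1 FPKM, while Nkx genes were the least, with 3 of 11. All 7 Meis and Pbx genes reached that level. The 44 factors that stayed under 1 FPKM in every library included the blood factors Gata1, Gata2 and Gata3, the foregut factor Gata4, and Tbx5, Tbx18, Tbx20, Nkx2-1 and Nkx2-5, which act in heart, lung or kidney.

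How evenly a factor was spread over the libraries was summarised as tau on log2(FPKM + 1), which is 0 for an even level and 1 for a gene found in a single library. The median tau was 0.54 over the 69 factors and 0.26 over the 14545 genes that reached 1 FPKM. Among these factors, 30 (43.5%) were at 1 FPKM or more in all 10 libraries, against 64.5% of all genes. The most even were Foxo4, Foxp4, Foxj3, Foxj2 and Foxn3, with tau between 0.10 and 0.15. For example, Foxp4, a repressor of the Foxp group, ranged from 19.0 FPKM in jejunal SM tissue to 38.4 in colonic PDGFRα+ cells. At the other end stood Foxl1, Tbx4, Irx5, Foxa2, Irx3 and Foxa1, with tau from 0.92 to 0.97.

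**Figure D1:**
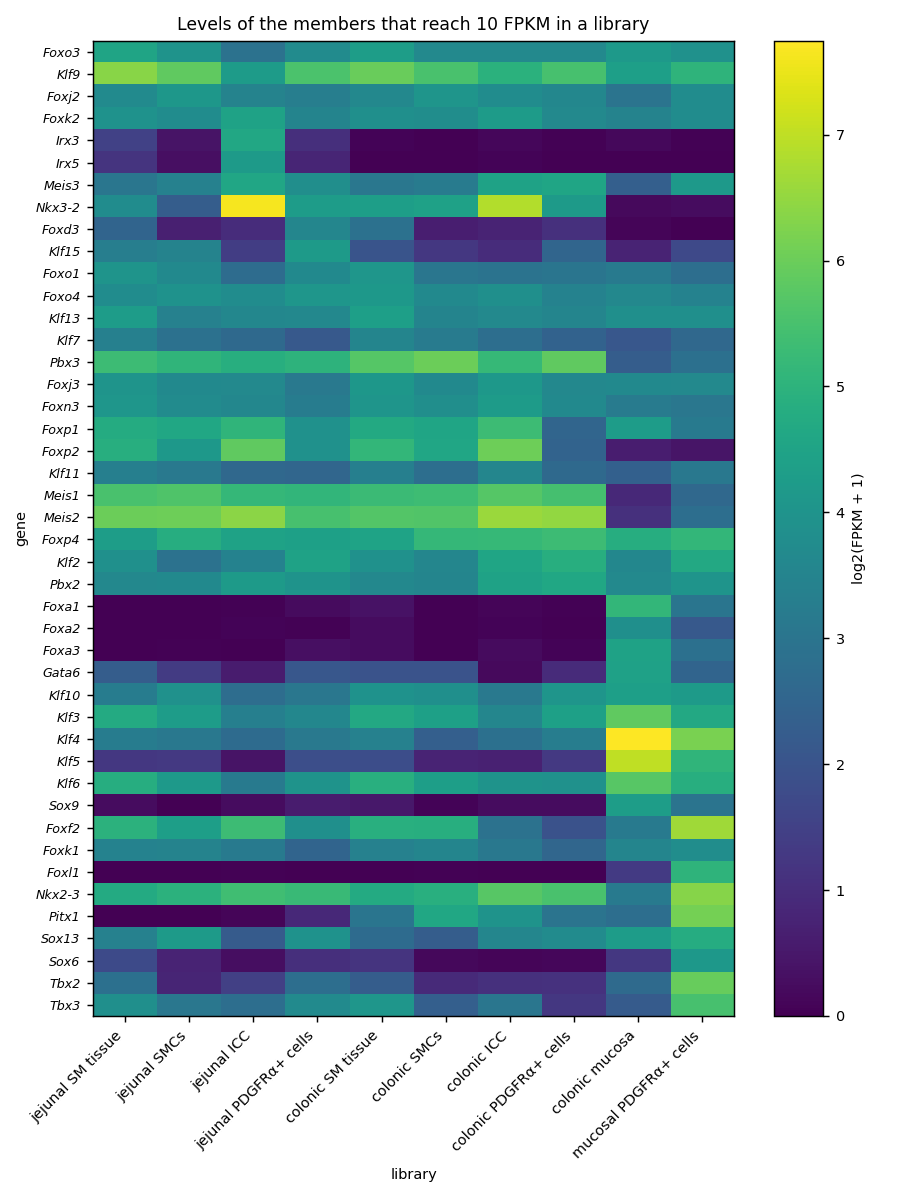
Levels of 44 factors that reach 10 FPKM, as log2(FPKM + 1) by colour, with genes in rows ordered by the library of their highest level and the 10 libraries in columns. Foxa1, Foxa2, Foxa3, Klf4, Klf5 and Sox9 are bright in the mucosa column, Foxl1, Foxf2 and Pitx1 in the last column, and Meis1, Meis2 and Pbx3 in the 8 muscle layer columns.

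By library, 14 of the 69 factors (20.3%) had their highest level in mucosal PDGFRα+ cells, where 7.46% of all genes had theirs. Those 14 included Foxf2, Foxl1, Nkx2-3, Pitx1, Sox5, Sox6, Sox13, Tbx2, Tbx3, Tbx4 and Tbx6. In contrast, 11 factors (15.9%) were highest in mucosa, as were 27.2% of all genes. Foxj2 was among the 2.9% of factors highest in jejunal SMCs, where 5.42% of all genes were highest. Irx6 and Pbx3 were highest in colonic SMCs, 2.9% of the factors and near the 2.97% of all genes.

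A factor was counted as different between 2 libraries when its FPKM + 1 differed by at least 4-fold, and was compared when it reached 1 FPKM in either of them. The mucosa and the muscle layer of the colon were set against each other first. Of 61 factors compared, 7 were at least 4-fold higher in mucosa (7.80% of all genes compared were) and 7 were at least 4-fold lower (9.91% of all genes were). Each direction held 11.5% of the factors compared, a share near that of all genes. With a pseudocount of 0.1 FPKM, 8 were higher and 15 lower, beside 1595 and 2205 of all 13832 genes compared.

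The 7 factors higher in mucosa are the factors known from gut epithelium. Klf4, which acts in goblet cells of the colon, was at 214 FPKM in mucosa, at 9.49 in colonic SM tissue and between 4.09 and 8.73 in the other 7 muscle layer libraries. Klf5, a factor of dividing crypt cells, was at 128 FPKM in mucosa and at 0.330 to 2.65 in the muscle layer. Both stood above every muscle library, with log2 ratios of FPKM + 1 to SM tissue of 4.35 and 5.19.

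The 3 Foxa genes were nearly confined to the 2 mucosal libraries. Foxa1 was at 34.2 FPKM in mucosa and at most 0.305 in any muscle layer library, Foxa2 at 13.4 and at most 0.193, and Foxa3 at 20.8 and at most 0.245. Sox9, a factor of the crypt base, was at 19.0 FPKM in mucosa and at most 0.520 in the muscle layer. Gata6 differed from these, since the muscle layer also held it: it was at 20.6 FPKM in mucosa, 3.88 in jejunal SM tissue, 2.98 in colonic SM tissue and 2.96 in colonic SMCs, and as low as 0.150 in colonic ICC. With known transcript variants alone, the log2 ratio of mucosa to SM tissue was 0.45 for Foxa2 and 1.76 for Gata6, both under the 4-fold line.

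The 7 factors lower in mucosa were Meis1, Meis2, Pbx3, Foxp2, Nkx3-2, Foxd3 and Sox12. Meis2 was at 1.11 FPKM in mucosa and 50.1 in colonic SM tissue, and Meis1 was at 0.863 and 38.0. Pbx3, a Meis partner, was at 3.85 and 51.0 FPKM. Foxp2 was at 0.522 and 34.3 FPKM, and the SoxC gene Sox12 at 0.942 and 7.99. The third Meis gene differed less, with Meis3 at 4.04 and 7.47 FPKM, and Pbx2 was at 11.5 and 11.3. Thus 2 of 3 Meis genes and 1 of 4 Pbx genes passed the 4-fold line, all of them higher in muscle. Foxd3, a factor of neural crest and its glia, was at 0.0809 FPKM in mucosa and 6.39 in SM tissue, while the summed level of the 5 glia markers was 56.1 FPKM in mucosa and 66.2 in SM tissue. Of those markers, Erbb3 was higher in mucosa, at 53.9 against 10.7 FPKM, and the other 4 were lower. The 5 neuron markers were at 2.65 and 339 FPKM, and the part of nerve cells in the Foxd3 difference was not tested.

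PDGFRα+ cells of the mucosa were then set against the mucosa they came from. Of 50 factors compared, 8 were at least 4-fold higher in the sorted cells (5.50% of all genes were) and 1 was at least 4-fold lower (1.64% of all genes were). The 8 higher factors were Foxl1, Foxf2, Pitx1, Tbx2, Tbx3, Tbx4, Sox6 and Nkx2-3, and their share was 16.0% of the factors compared. With a pseudocount of 0.1 FPKM, 13 were higher and 3 lower, beside 1158 and 709 of all 12840 genes compared. Fibroblast markers moved with them, since all 5 were 3.71-fold to 12.3-fold higher in the sorted cells.

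Foxl1, which marks mesenchymal cells lying directly under the epithelium in the mouse gut, had the highest tau of the 69 factors. It was at 32.1 FPKM in mucosal PDGFRα+ cells, 1.49 in mucosa, 0.0312 in jejunal ICC and 0.0317 in colonic SMCs, and was under the 0.025 FPKM cutoff in the other 6 libraries. Its level was therefore 21.6-fold higher in the sorted cells than in mucosa. Foxf2, a hedgehog-responsive factor of gut mesenchyme, was at 98.7 FPKM in mucosal PDGFRα+ cells and 8.01 in mucosa. Unlike Foxl1 it was also present throughout the muscle layer, at 30.3 FPKM in jejunal and 28.4 in colonic SM tissue. It was lowest in colonic PDGFRα+ cells of the muscle, at 2.89 FPKM.

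The T-box genes Tbx2 and Tbx3, repressors known from limb and heart, behaved alike in the mucosa. Tbx2 was at 60.3 FPKM in mucosal PDGFRα+ cells and 5.36 in mucosa, and Tbx3 was at 43.7 and 3.63. In the muscle layer, Tbx2 ranged from 0.747 to 6.23 FPKM and Tbx3 from 1.40 to 15.7, so that neither approached the mucosal PDGFRα+ level there. Tbx4, known from hindlimb and lung mesenchyme, reached 3.94 FPKM in mucosal PDGFRα+ cells, 0.225 in mucosa and at most 0.103 elsewhere. Tbx5, the remaining gene of the subfamily, did not pass 0.136 FPKM in any library.

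Sox6, a Sox gene without an activation domain, was at 16.6 FPKM in mucosal PDGFRα+ cells and at 1.38 in mucosa, and its highest muscle layer level was 2.33 in jejunal SM tissue. Its close relatives Sox5 and Sox13 were also highest in mucosal PDGFRα+ cells, at 2.71 and 26.7 FPKM, with 0.374 and 18.3 in mucosa, and neither reached 4-fold on FPKM + 1. All Sox6 variants in the tables shared a junction with a known transcript and none matched one in full, and with known variants alone the log2 ratio of Tbx4 to mucosa was 0.45. Nkx2-3, a homeobox gene of gut and spleen mesenchyme, was at 79.2 FPKM in mucosal PDGFRα+ cells against 8.18 in mucosa. It was the most even of the 8 factors, with 25.4 to 52.7 FPKM across the muscle layer.

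**Figure D2:**
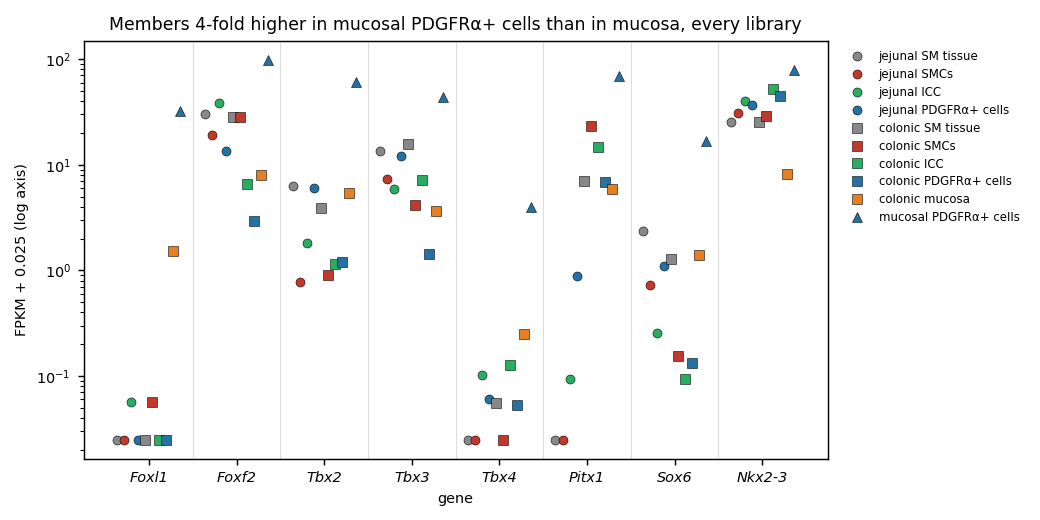
FPKM + 0.025 on a log axis for the 8 factors at least 4-fold higher in mucosal PDGFRα+ cells than in mucosa, with 1 point per library (shape gives jejunum, colon or mucosal sort, colour the cell type). The blue triangle, mucosal PDGFRα+ cells, is the highest point of all 8 genes. Foxl1 falls to the floor of the axis in the muscle layer, whereas Nkx2-3 stays between 25.4 and 52.7 FPKM there.

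The epithelial factors were lower in the sorted cells than in mucosa and were still present. Foxa1 was at 7.14 FPKM there, 0.209 times its mucosal level, and Sox9 was at 6.97 FPKM, 0.366 times its mucosal level. The other 5 (Foxa2, Foxa3, Klf4, Klf5 and Gata6) lay between these ratios. The 7 epithelial markers, Epcam, Vil1, Cdh1, Cdx1, Cdx2, Lgals4 and Krt20, had ratios from 0.210 to 0.305, with a summed level of 871 FPKM in the sorted cells and 3266 in mucosa. The part of epithelial RNA in the levels of these factors was not tested.

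**Figure D3:**
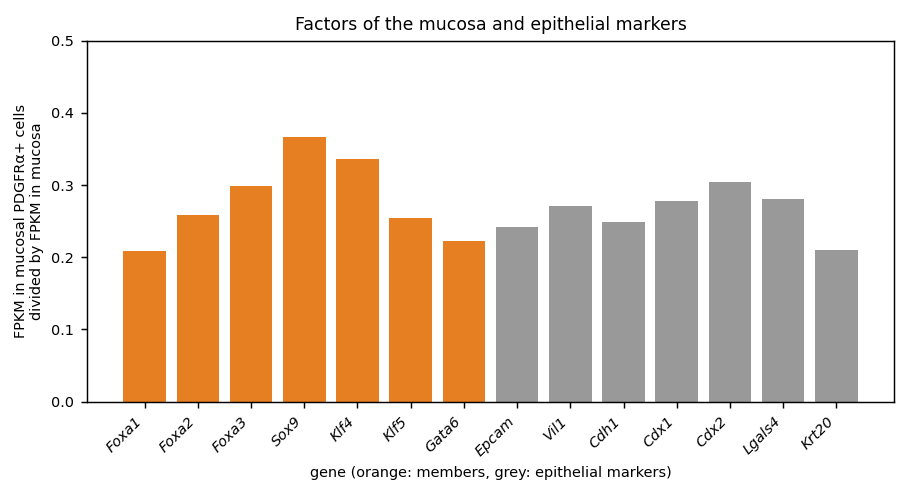
FPKM in mucosal PDGFRα+ cells divided by FPKM in mucosa, on a linear axis from 0, for 7 epithelial factors (orange bars) and 7 epithelial markers (grey bars), 1 library each. The orange bars lie between 0.209 (Foxa1) and 0.366 (Sox9), and the grey bars between 0.210 (Krt20) and 0.305 (Cdx2).

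Mucosal and muscle PDGFRα+ cells of the colon had similar levels of Pdgfra, 228 and 230 FPKM, and differed in many of the factors. Of 52 compared, 13 were at least 4-fold higher in the mucosal cells (6.34% of all genes were) and 5 were at least 4-fold lower (3.11% of all genes were). The higher ones were 7 of the 8 factors above and 6 of the epithelial factors. In the same comparison all 7 epithelial markers were 49.7-fold to 306-fold higher and the 5 proliferation markers 13.4-fold to 25.5-fold higher, and their part in the count was not tested. Foxf2 was at 98.7 FPKM in mucosal and 2.89 in muscle PDGFRα+ cells, Tbx2 at 60.3 and 1.16, and Tbx3 at 43.7 and 1.40. Foxl1 was under the 0.025 FPKM cutoff in the muscle cells, so that no fold is given. The exception was Nkx2-3, at 79.2 and 44.7 FPKM, which differed by less than 2-fold.

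The 5 factors higher in muscle PDGFRα+ cells were Nkx3-2, Meis2, Pbx3, Meis1 and Foxp2. Meis2 was at 89.7 FPKM in the muscle cells and 5.94 in the mucosal cells, Meis1 at 43.3 and 5.13, and Pbx3 at 56.3 and 6.22. Nkx3-2 was at 17.8 and 0.192 FPKM. All 5 were also among the 7 factors lower in mucosa than in the muscle layer of the colon, a comparison that shares no library with this one. Both comparisons set mucosal against muscle values that were normalized separately. Foxp2 lay close to the 4-fold line here, with a log2 ratio of -2.02, and was at -1.81 with known variants alone.

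Promoter sequence is shown for 3 of the 8 factors of mucosal PDGFRα+ cells, Foxf2, Nkx2-3 and Tbx4, because they were high together in 1 cell type and differed in how far the muscle layer shared them. The 250 bases before each start were taken from RefSeq (GRCm38.p6), which matched 78 of the 113 factors, and are printed 5′ to 3′ on the gene's strand. Foxf2 lies at chr13:31625566-31625815 (+), Nkx2-3 at chr19:43612075-43612324 (+) and Tbx4 at chr11:85896515-85896764 (+). Capitals mark matches, on either strand, to the motifs named after the sequences.
Foxf2: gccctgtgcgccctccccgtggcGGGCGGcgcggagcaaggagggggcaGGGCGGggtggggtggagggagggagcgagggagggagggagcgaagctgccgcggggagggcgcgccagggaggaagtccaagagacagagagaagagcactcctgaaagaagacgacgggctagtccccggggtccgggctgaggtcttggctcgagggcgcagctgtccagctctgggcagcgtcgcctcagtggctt
Nkx2-3: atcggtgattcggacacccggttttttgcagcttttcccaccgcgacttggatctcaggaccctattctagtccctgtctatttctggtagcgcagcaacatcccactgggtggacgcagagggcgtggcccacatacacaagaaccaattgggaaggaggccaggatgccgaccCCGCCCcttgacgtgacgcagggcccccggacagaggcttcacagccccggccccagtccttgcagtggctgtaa
Tbx4: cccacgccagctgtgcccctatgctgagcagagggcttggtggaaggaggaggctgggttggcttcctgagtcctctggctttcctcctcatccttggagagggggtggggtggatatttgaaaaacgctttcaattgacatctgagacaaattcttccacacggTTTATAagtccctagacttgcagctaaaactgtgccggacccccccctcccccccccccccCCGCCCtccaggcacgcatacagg

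Foxf2 held 2 GC boxes, and Nkx2-3 and Tbx4 held 1 each. A TATA box match lay 85 bases before the start of Tbx4, and no other motif searched was found in these 3 windows. The GC box was searched as GGGCGG and occurred in 32.7% of all 32851 promoter windows of the same length. For the TATA box the letters were TATAAA, found in 12.4% of the windows. Of the families studied here, the forkhead motif was taken as TGTTTAC, which 3.17% of all windows held. The Gata motif was taken as AGATAA and was held by 9.99% of the windows. For T-box proteins the letters TCACACC were used, with a match in 3.33% of windows. The Sox motif, ACAAAG, was present in 16.5% of all windows searched. Meis proteins were represented by TGACAG, present in 15.9% of all windows. Pitx proteins were represented by TAATCC, present in 6.25% of the windows, and Irx proteins by the palindrome ACATGT in 4.58% of the windows. The Nkx2 motif, searched as CACTTGA, was found in 2.68% of all windows. The motif of Klf proteins was searched as CCACACCC and found in 3.20% of windows, and its letters overlap those of the T-box motif. The CArG box of serum response factor, allowing any A or T at its centre, was held by 1.47%. Over the 91 windows of the 78 matched factors, several of which belong to the same gene, 65.9% held a GC box, 8.79% a TATA box and 2.20% a CArG box.

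Neighbouring genes did not always share a pattern. On mouse build NCBIM37, Foxl1 (chr8:123651840-123652929) lies 9.05 kb from Foxc2 and 41.0 kb from Foxf1a, a Foxf2 relative whose symbol the naming rule did not take. Foxf1a was at 167 FPKM in mucosal PDGFRα+ cells, like Foxl1 far above the 12.1 FPKM of mucosa, and in contrast to Foxl1 it reached 212 FPKM in jejunal and 164 in colonic ICC. Foxc2, which lies between them, did not pass 1.03 FPKM in any library. Tbx2 (chr11:85646053-85655450) and Tbx4 (chr11:85699924-85729599) are 44.5 kb apart, and both had their highest level in mucosal PDGFRα+ cells. Tbx3 and Tbx5 are 149.9 kb apart on chromosome 5, with highest levels of 43.7 and 0.136 FPKM.

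The colon and the jejunum were compared in SM tissue, SMCs and ICC. In SM tissue, 1 of 59 factors was at least 4-fold higher in the colon (0.616% of all genes were) and none was at least 4-fold lower (0.257% of all genes were). In SMCs, 2 of 42 were higher in the colon (0.556% of all genes) and 2 were lower (0.442% of all genes). In ICC, 1 of 46 was higher in the colon (2.26% of all genes) and 4 were lower (1.78% of all genes). These are counts of single libraries from separate tables.

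Pitx1 was the factor higher in the colon in all 3 comparisons. Pitx1, a paired-like homeobox gene of the hindlimb and pituitary, was under the 0.025 FPKM cutoff in jejunal SM tissue and jejunal SMCs, and was at 0.0693 FPKM in jejunal ICC and 0.865 in the library labelled jejunal PDGFRα+ cells. In the colon it was at 6.99 FPKM in SM tissue, 23.4 in SMCs, 14.7 in ICC, 6.90 in PDGFRα+ cells, 5.90 in mucosa and 69.4 in mucosal PDGFRα+ cells. Every colonic library thus stood above every jejunal library. The ratio of FPKM + 1 between the 2 ICC libraries was 3.87 on the log2 scale.

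The Irx genes differed by organ and by cell type. Irx3 was at 23.9 FPKM in jejunal ICC and 0.103 in colonic ICC, and Irx5 was at 17.7 and 0.0449. In jejunal SM tissue they were at 1.83 and 1.23 FPKM, and no colonic library passed 0.115 FPKM for either gene. Irx3 and Irx5, whose proteins pattern heart, limb and nervous system in the mouse, thus had 1 common place of high level among the 10 libraries. They lie 556 kb apart on chromosome 8 (Irx3 at chr8:94322428-94325553 and Irx5 at chr8:94881695-94885351, NCBIM37). Irx6, the third gene of that cluster and 313 kb beyond Irx5, was instead highest in colonic SMCs, at 3.05 FPKM, with 0.702 in jejunal SMCs.

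Foxf2 and Sox11 were the other factors lower in colonic than in jejunal ICC. Foxf2 was at 6.57 FPKM in colonic ICC and 38.5 in jejunal ICC, while the SM tissues were close, at 28.4 and 30.3. Sox11, a factor of immature neurons and mesenchyme, was at 0.359 and 5.10 FPKM. The ICC libraries also differed in other markers: summed fibroblast markers were at 3070 FPKM in colonic and 454 in jejunal ICC, and their part in these differences was not tested.

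In SMCs, Nkx3-2 was at 20.8 FPKM in the colon and 3.91 in the jejunum, and Klf15, a factor of muscle metabolism, was at 1.38 and 9.96. Klf15 was lower in the colon in each like pair of libraries, with 3.07 against 8.98 FPKM in SM tissue, 0.967 against 1.66 in ICC and 4.74 against 17.7 in the libraries labelled PDGFRα+ cells. Between the organs, 52 of 59 factors (88.1%) lay within 2-fold in SM tissue, 36 of 42 (85.7%) in SMCs and 37 of 46 (80.4%) in ICC. The shares of all genes compared were higher, at 95.8%, 95% and 86.2%.

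**Figure D4:**
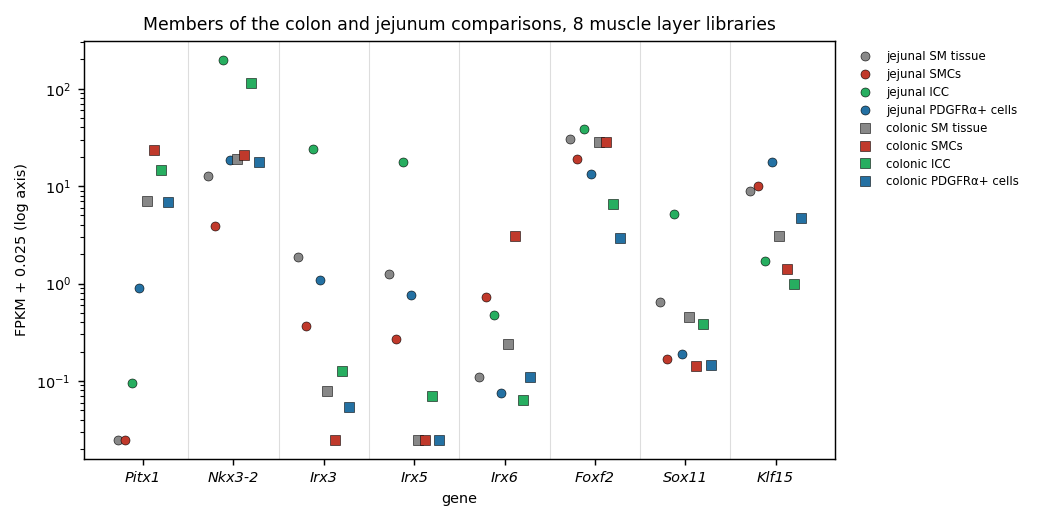
FPKM + 0.025 on a log axis for 8 factors of the organ comparisons in the 8 muscle layer libraries, 1 point per library (circles jejunum, squares colon, colour the cell type). For Pitx1 every square lies above every circle, and Irx3 and Irx5 reach 23.9 and 17.7 FPKM in jejunal ICC alone.

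Sorted cells were set against the SM tissue of the same organ to find factors of single cell types. In SMCs none of 49 factors was at least 4-fold higher than tissue in the jejunum (0.297% of all genes were) and 1 was lower (3.48% of all genes were). Likewise in the colon none of 57 was higher (0.149% of all genes) and 2 were lower (5.30% of all genes). In ICC, 3 of 51 were higher in the jejunum (1.62% of all genes) with 1 lower (2.72% of all genes), and 1 of 57 was higher in the colon (1.43% of all genes) with 2 lower (4.40% of all genes). These counts rose with a pseudocount of 0.1 FPKM, to 1 higher and 11 lower in colonic SMCs, 1 and 11 in colonic ICC, 4 and 6 in jejunal ICC, and none and 4 in jejunal SMCs. Counts over all genes rose too, to 40 higher and 1686 lower of 12772 in colonic SMCs and 346 and 1305 of 13105 in colonic ICC. In the jejunum they became 394 and 842 of 12742 in ICC, and 94 and 1183 of 12460 in SMCs.

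Nkx3-2, a homeobox gene known from stomach, spleen and skeleton, was the factor that set ICC apart in both organs. It was at 198 FPKM in jejunal ICC, where it ranked 232nd among all genes, and at 115 in colonic ICC. The remaining muscle layer libraries lay between 3.91 and 20.8 FPKM, and mucosa and mucosal PDGFRα+ cells were at 0.148 and 0.192. Both ICC libraries thus stood above every other library, by log2 ratios of FPKM + 1 to tissue of 3.87 in the jejunum and 2.53 in the colon. Of its 2 transcript variants, the same one led in all 7 libraries in which the gene reached 5 FPKM, with 64.8% to 79.1% of the gene's level. That leading variant did not match a known transcript in full. The known variant made up 20.9% of the level in jejunal ICC and 26.6% in colonic ICC. With it alone, the log2 ratios to tissue were 3.09 in the jejunum and 2.03 in the colon.

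The promoters of Nkx3-2 and Irx3 are shown because these factors led jejunal ICC over tissue, Nkx3-2 in both organs and Irx3 in the jejunum. The windows are as above, at chr5:41764221-41764470 (-) and chr8:91801655-91801904 (-), GRCm38.p6, with the same motifs in capitals.
Nkx3-2: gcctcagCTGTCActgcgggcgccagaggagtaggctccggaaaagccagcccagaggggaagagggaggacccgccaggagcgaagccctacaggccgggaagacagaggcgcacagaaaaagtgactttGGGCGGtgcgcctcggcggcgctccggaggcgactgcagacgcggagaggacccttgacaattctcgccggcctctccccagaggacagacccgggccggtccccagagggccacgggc
Irx3: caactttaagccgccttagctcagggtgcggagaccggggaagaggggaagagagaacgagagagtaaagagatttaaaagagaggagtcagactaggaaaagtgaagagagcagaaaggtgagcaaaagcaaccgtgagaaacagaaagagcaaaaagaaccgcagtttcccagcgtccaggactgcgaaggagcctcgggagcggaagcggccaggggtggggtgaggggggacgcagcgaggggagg
Nkx3-2 held 1 GC box and 1 Meis match, 243 bases before the start. No motif of the set was found in the Irx3 window.

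Several factors were higher in both ICC libraries than in tissue by less than 4-fold. Meis3 was at 22.8 FPKM in jejunal and 20.9 in colonic ICC, with 7.18 and 7.47 in the tissues, and at 22.7 in colonic PDGFRα+ cells. Foxp2, a repressor best known from brain, was at 56.5 and 64.4 FPKM in ICC with 28.0 and 34.3 in the tissues, and Nkx2-3 was at 40.4 and 52.7 with 25.4 and 25.5. Klf9, a glucocorticoid-responsive factor, ran the other way, with 18.2 and 30.1 FPKM in ICC and 81.8 and 61.5 in the tissues. It was the 1 factor counted as 4-fold lower in jejunal ICC, with a log2 ratio of -2.11, and of -1.69 with known variants alone. In colonic ICC Klf9 stayed under 4-fold. Foxo1 and Foxo3, targets of insulin signalling, were also lower in ICC, Foxo3 being at 6.56 and 11.5 FPKM with 21.9 and 18.9 in the tissues.

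**Figure D5:**
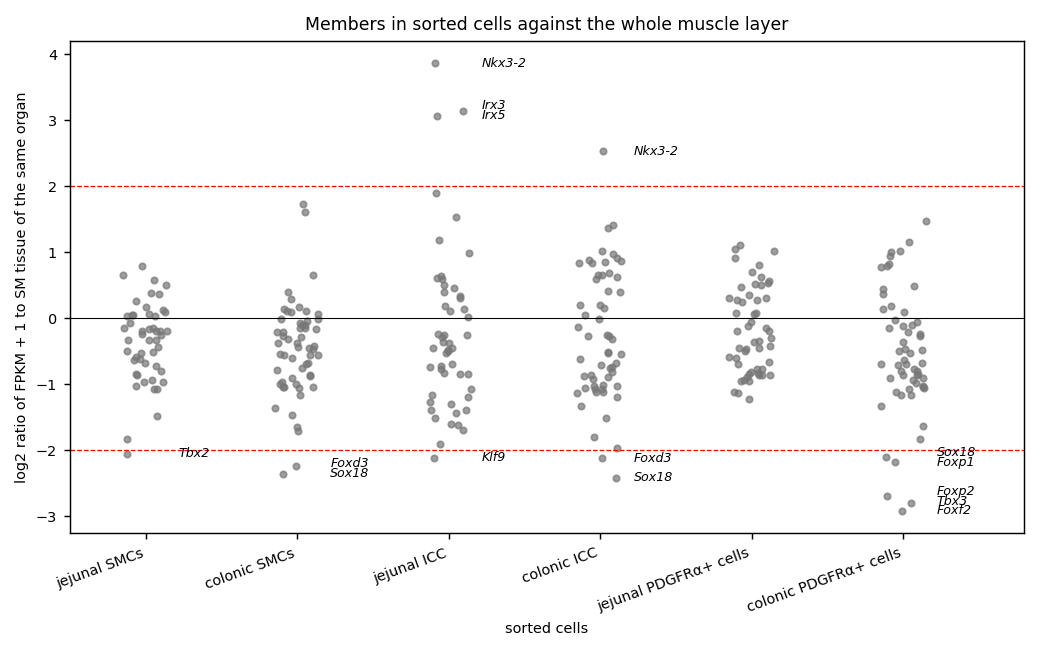
The log2 ratio of FPKM + 1 in sorted cells to that in SM tissue of the same organ, 1 grey point per factor compared, for 6 sorted libraries; dashed lines mark 4-fold and named genes lie beyond them. Nkx3-2 is above the upper line in both ICC libraries, Irx3 and Irx5 in jejunal ICC, and 5 factors are below the lower line in colonic PDGFRα+ cells.

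PDGFRα+ cells of the colonic muscle were then set against tissue. None of 57 factors was at least 4-fold higher (2.08% of all genes were), and 5 were lower (6.18% of all genes were), namely Foxf2, Tbx3, Foxp2, Foxp1 and Sox18. These 5 were 8.77% of the factors compared. Markers of other cells were also lower there, with a median FPKM ratio to tissue of 0.116 for smooth muscle, 0.0556 for neurons and 0.186 for endothelium, and their part was not tested. With a pseudocount of 0.1 FPKM, 1 factor was higher and 15 were lower, beside 402 and 1717 of all 12990 genes compared. Foxf2 was at 2.89 FPKM in the cells and 28.4 in tissue, Tbx3 at 1.40 and 15.7, and Foxp2 at 4.49 and 34.3. Foxp1 was at 4.78 FPKM there and at 22.4 in colonic SMCs and 38.7 in colonic ICC. Hence 2 of the 3 Foxp genes compared were low in these cells, while Foxp4 was at 38.4 FPKM, its highest level of the 10. In the library labelled jejunal PDGFRα+ cells no factor passed 4-fold in either direction of 53 compared (0.913% of all genes were higher and 0.140% lower).

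Among the 3 sorted cell types of the colonic muscle, a factor was said to lead in one when its FPKM + 1 was at least 4-fold above both others. SMCs led in none of 47 factors compared (2.11% of all genes) and PDGFRα+ cells in none (1.62% of all genes). ICC led in 2 (1.37% of all genes), Nkx3-2 and Klf12. Klf12, a repressor that binds CtBP, was at 6.92 FPKM in colonic ICC, 0.645 in SMCs and 0.915 in PDGFRα+ cells, and at 1.41 in jejunal ICC. Of its level in colonic ICC, 10.3% came from variants that match a known transcript. Known variants alone left 1 factor led by ICC, as did a filter of 10 FPKM, which Klf12 did not reach. In SMCs the widest gaps on FPKM + 1, both under 4-fold, were those of Foxf2, at 28.2 FPKM with 6.57 in ICC and 2.89 in PDGFRα+ cells, and of Irx6, at 3.05 with 0.0387 and 0.0858.

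A further set of factors was lower in most sorted libraries than in tissue. Sox18, with Sox7 and Sox17 a factor of vessel lining, was at 7.30 FPKM in colonic SM tissue and at 0.623 in SMCs, 0.554 in ICC and 0.927 in PDGFRα+ cells. The 5 endothelial markers, summed, were at 51.8 FPKM in that tissue and at 3.48, 2.93 and 11.1 in the same cells. Foxd3 was at 6.39 FPKM in the tissue and 0.561, 0.697 and 1.09 in the cells, and the 5 glia markers were at 66.2 and 7.66, 10.7 and 9.26. In the library labelled jejunal PDGFRα+ cells both factors were above tissue, Sox18 at 6.55 against 2.51 FPKM and Foxd3 at 10.7 against 4.63, as were the endothelial markers, at 52.6 against 27.2, and the glia markers, at 54.4 against 40.3. The part of vessel and nerve cells in these levels was not tested. Tbx2 was lower in jejunal SMCs than in tissue, at 0.747 against 6.23 FPKM.

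Some Klf genes, Klf2 and Klf6 among them, can respond early to stimulation of a cell, and immediate early genes are therefore given beside them. Klf2 was at 13.8 and 14.1 FPKM in jejunal and colonic tissue, and at 6.59 and 10.7 in SMCs, 9.87 and 22.3 in ICC and 20.9 and 28.2 in PDGFRα+ cells. Klf6 was at 27.2 and 28.8 FPKM in the tissues and between 8.17 and 19.4 in the 6 sorted muscle libraries, all of them lower. Neither gene differed from tissue by 4-fold. The 9 immediate early genes, summed, were at 320 and 146 FPKM in the tissues and between 264 and 1070 in those sorted libraries, and their part in the Klf levels was not tested.

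Partners and relatives of these factors were counted by the same rule. Of 49 genes listed (other TALE homeobox genes, Gata cofactors, Sp, T-box and Fox relatives, Groucho corepressors and gut patterning factors), 45 were in the tables. In mucosal PDGFRα+ cells against mucosa, 7 of 30 compared were at least 4-fold higher (Foxf1a, Pknox2, Prrx2, Tcf21, Tgif2, Tle2 and Twist2) and none was lower, where 5.50% and 1.64% of all genes were. In mucosa against the muscle layer, 2 of 33 were higher (Cdx1 and Cdx2) and 7 were lower, among them Hand1, Hand2 and Twist1, beside 7.80% and 9.91% of all genes. Between colonic and jejunal ICC, 2 of 29 were higher (Tcf21 and Twist2) and 1 was lower (Hand1), beside 2.26% and 1.78% of all genes. Hand1, a factor of gut mesenchyme and heart, was at 280 FPKM in jejunal ICC and 58.6 in colonic ICC, and Tcf21, of fibroblast precursors, was at 41.7 and 384. The Groucho corepressor Tle2 was at 38.2 and 27.9 FPKM in the 2 ICC libraries and 5.83 and 6.81 in the tissues.

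Some other factors at 20 FPKM or more were present in every library. Klf3, a repressor that binds CtBP, was at 56.5 FPKM in mucosa and 9.09 to 25.4 in the other 9 libraries. Pbx2 ranged from 10.5 to 23.6 FPKM and Foxk2 from 10.1 to 21.1. None of these 3 passed 4-fold in any comparison.

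Transcript variants of the factors were also compared, since the tables list each. The factors that reached 1 FPKM had a median of 4 variants, as had all genes at that level. Of 43 factors with 5 FPKM or more in at least 2 libraries, 25 had the same leading variant in each of those libraries and 18 had more than 1. Nkx2-3 kept 1 leading variant in all 10 libraries, with 74.6% to 91.0% of its level. Foxl1, Irx3 and Irx5 each had a single variant, so that their differences do not depend on how reads were divided among variants. In mucosa 2.76% of the Foxa2 level came from variants that match a known transcript, and 40.7% of the Gata6 level did. Among factors named above, this share was 3.85% to 8.25% for Meis2, 6.76% to 22.9% for Klf3 and 13.5% to 22.8% for Klf9, over libraries with 5 FPKM or more. It was 100% for Klf6, Foxo1 and Pbx2. With known variants alone, the log2 ratio of Meis2 in mucosa to SM tissue was -2.26, where all variants gave -4.59. The library kit did not mark strand, so antisense transcripts at these genes cannot be told apart from them.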

How the data were processed

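RNA from 10 libraries had been sequenced. Per the study's methods and the submitters' processing notes, TopHat 1.4.1 placed the reads on mm9, and Cufflinks 2.0.2 with Cuffdiff estimated the level of each transcript. Deposited values are FPKM per transcript variant, calculated by the authors in 3 tables (jejunum, colon, mucosa), without counts or intervals, so that no precision is given for a value.

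Groups were taken from the sample titles, with 1 library each. Variants under 0.025 FPKM were set to 0, a cutoff used in the study, and summed per gene symbol. Ratios were computed as log2 of FPKM + 1 over genes with 1 FPKM in either library, and 4-fold differences were counted over the factors and over all genes with Python 3.11.15, numpy 2.4.6 and pandas 2.3.3. The calls were tested on simulated data. No test was run across libraries, because each group has 1. Factors named are those with 20 FPKM in a library, the 10 most different per direction of each comparison, those leading a colonic cell type, and those of a role group described. Alternatives changed the cutoff, pseudocount, filter, scaling and variants used. Results of 2 factors are not reported here. The members and lists were chosen with earlier results of these data known. Positions are from GENCODE on NCBIM37 (112 of 113 factors found) and promoters from RefSeq on GRCm38.p6.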

Additional observations from a re-analysis of the deposited data

Results flagged for a closer look

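Some factors moved in opposite directions in jejunum and colon under the same contrast of sorted cells against tissue, with ratios at least 4-fold apart. The differences were not tested, since each group has 1 library. Foxf2 in ICC was at 38.5 FPKM with 30.3 in jejunal tissue, and at 6.57 with 28.4 in colonic tissue, a difference of 2.29 between the log2 ratios (jejunum minus colon). Sox13 in ICC was at 3.63 against 9.62 FPKM in the jejunum and 10.8 against 5.60 in the colon, a difference of -2.03, close to the 4-fold line. Variants that match a known transcript gave 8.42% of the Sox13 level in colonic ICC and 6.28% in colonic SM tissue. In PDGFRα+ cells, Foxd3 (2.88), Sox18 (3.21) and Sox2 (2.11) were above tissue in the jejunum and below it in the colon. All 3 rest on the library labelled jejunal PDGFRα+ cells, in which Pdgfra was below its tissue level. Without that library these 3 differences cannot be computed.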

How the results depend on the processing

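Over 262 recomputed ratios of the 66 factor differences, 250 stayed past 4-fold and 12 fell under it, and none changed direction. The total includes 66 ratios with a pseudocount of 0.1 FPKM, which widens every ratio, so that none of them could fall under the line. Leaving out the 0.025 FPKM cutoff lost none of 66. Rescaling to TPM, which raises all levels so that the pseudocount weighs less, lost 1 of 66. Known variants alone lost 11 of 64. With a pseudocount of 0.1 FPKM the number of factors past 4-fold became 23 for mucosa against muscle layer, 6 for colonic against jejunal SM tissue, 4 and 12 for jejunal and colonic SMCs, 10 and 12 for ICC and 16 for colonic PDGFRα+ cells against tissue, 16 for mucosal PDGFRα+ cells against mucosa, and 2 for factors led by colonic SMCs. Rescaling each library to TPM gave 5 for SM tissues of the 2 organs, 2 and 7 for SMCs, 7 and 6 for ICC, 9 for colonic PDGFRα+ cells, 14 for mucosal PDGFRα+ cells against mucosa and 1 led by colonic SMCs. Under both settings, counts over all genes also rose in each of these comparisons between 2 libraries. Rescaling moved the median log2 ratio of all genes by -0.23 (mucosa against muscle layer) to 0.16 (jejunal ICC against tissue), and in the library labelled jejunal PDGFRα+ cells it took the share of higher among all genes called from 86.7% to 76.1%. Klf9 in jejunal ICC then fell by 1.99 on the log2 scale, under the line. A filter of 10 FPKM left 0 for the SM tissues of the 2 organs and for both SMC comparisons with tissue, 2 for SMCs between organs, 1 for colonic ICC against tissue and 1 led by colonic ICC. With known variants alone, jejunal SMCs against tissue gave 0 and colonic ICC led in 1, and 11 ratios of single factors fell under the line, among them Foxa2 in mucosa (0.45) and Tbx4 in mucosal PDGFRα+ cells (0.45), while Sox6 had no such variant and gives no value. The cause of these changes was not tested, apart from the construction of each setting. Without the library labelled jejunal PDGFRα+ cells, 5 factors instead of 3 were highest in jejunal SM tissue. No paired analysis was possible because each group has 1 library. Precision cannot be given without replicates or read counts.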

Other observations

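Foxm1, a factor of dividing cells, was highest in mucosa, at 5.62 FPKM, as were 5 proliferation markers, at a summed 108 FPKM. It was lowest in the library labelled jejunal PDGFRα+ cells, at 0.572 FPKM, with 4.28 FPKM of the markers, whereas the markers were lowest in colonic PDGFRα+ cells, at 2.03 FPKM. In other muscle layer cells Foxm1 was at 3.32 and 4.17 FPKM in jejunal and colonic ICC, 0.796 and 1.16 in SMCs, and 1.03 in colonic PDGFRα+ cells. The SMC value was below tissue in both organs, and the ICC value above it.

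Tbx6 and Klf16 were both highest in mucosal PDGFRα+ cells, at 2.90 and 7.80 FPKM. Tbx1, a pharyngeal and heart factor, was at 1.84 FPKM in colonic SM tissue and did not pass 0.366 in any other library, sorted colonic muscle cells included.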
